A study of Mus musculus with 1 sample.

Results

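The genes described here are 10 Krüppel-like factors, the transcription factor genes Klf2, Klf3, Klf4, Klf5, Klf6, Klf7, Klf9, Klf10, Klf13 and Klf15. They were picked by symbol, and the choice was made with earlier results of these data known. Every probe set that the platform annotation assigns to exactly 1 of them was used. That gave 34 probe sets of the 34945 that name 1 gene and 10 genes of the 18193 measured. No probe set named a member together with another gene. The sample, titled KR Primary, was a mouse lung cancer line (strain B6/J) that had been established from a KR tumor and was grown in RPMI medium with fetal bovine serum, and the labels record no treatment. What KR stands for is not spelled out there, and the series title speaks of lines from mouse kras tumors. The RNA of this 1 sample was read on 1 Affymetrix array. There was no other group and no replicate, and no value below carries a replicate error or a p-value.

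Krüppel-like factors bind GC-rich DNA and CACCC sequences, also called GT boxes, through a highly conserved set of zinc fingers at the carboxy end, and the parts of the proteins outside the fingers decide which cofactors they recruit. The family is commonly divided into members that recruit the CtBP corepressors, members that act mainly as activators and members that recruit the SIN3A corepressor, with a few that fit none of these. In epithelia the family is known for the balance between growth and differentiation, KLF5 being the factor of dividing cells in the gut and KLF4 that of differentiating ones, and in the lung KLF5 acts in maturation of the alveolar epithelium and KLF2 in the endothelium.

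A probe set reports how brightly a group of short probes hybridized, in arbitrary fluorescence units. Each signal was read against 126 probe sets of smell, taste and hair follicle genes on the same array. The 95th percentile of their signals, 16.8, is called the background line, and the highest of them, 60.6, the upper background limit. That limit rests on 1 keratin-associated gene, the next highest signal being 42.2. Probe sets differ in brightness for the same amount of RNA, so the order of signals between genes is not an order of RNA amounts. The epithelial nature of the cells was borne out by 6 of 6 epithelial markers above the upper limit, from 1150.2 for the tight junction gene Cldn4 to 7600.2 for the keratin gene Krt18. Of 4 lung lineage markers 1 exceeded the line, and no marker reached the upper limit. Sftpc, encoding surfactant protein C, read 21.1 on the higher of its 2 probe sets, and Foxj1, Nkx2-1 and Scgb1a1 read 9.02, 7.66 and 1.38, so these markers gave little signal for the lung label. None of 6 endothelial, 4 leukocyte, 6 fibroblast and 3 red cell markers measured exceeded the upper limit, and the highest signals were 30.3, 47.1, 19.3 and 28.8.

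Transcripts of most of the 10 genes gave signal. At least 1 probe set was above the background line for 9 of the 10, beside 63.3% of all genes, and above the upper limit for 8 of the 10, beside 47.5% of all genes. Counted singly, 30 of the 34 probe sets (88.2%) exceeded the line and 27 (79.4%) the upper limit, beside 60.9% and 41.1% of all one-gene probe sets. The median signal of the 34 was 191, beside 32.1 over all one-gene probe sets, and 17 of them lay above the 75th percentile of the array's one-gene signals. The exceptions were Klf15, near the bottom of the array's one-gene signals, and Klf2, between the line and the limit. Because the members were chosen with earlier results of these data known, their height over the shares of the array is not a test of the family. Some of the height of the count of genes is fixed by the number of probe sets a gene has. On this array 48.4% of genes with 1 probe set exceeded the line and 32.6% the limit, whereas 90.9% and 82.4% of genes with 5 or more were. Klf3, Klf6 and Klf9 belong to the latter class, and Klf2, Klf10 and Klf15 have 1 probe set each.

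**Figure D1:**
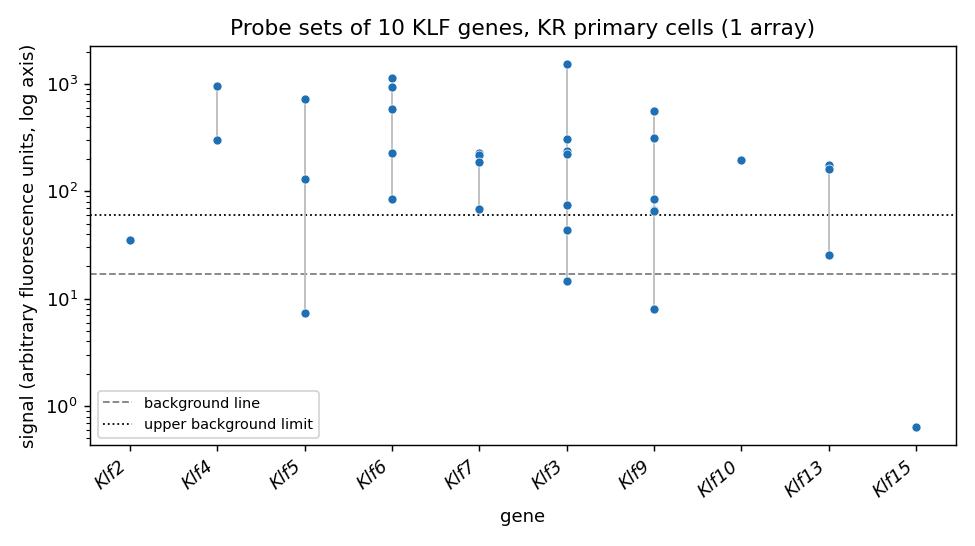
Signal of every probe set of the 10 genes on a log axis, with activator-type factors at the left, then Klf3, the SIN3A-binding factors and Klf15; each point is 1 probe set on 1 array, the grey bar joins the lowest and highest of a gene, and the horizontal lines are the background line at 16.8 and the upper limit at 60.6. All probe sets of Klf4, Klf6 and Klf7 and the only one of Klf10 lie above the upper limit, Klf3, Klf5 and Klf9 each have 1 point below the line, and Klf15 lies at 0.644.

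**Figure D2:**
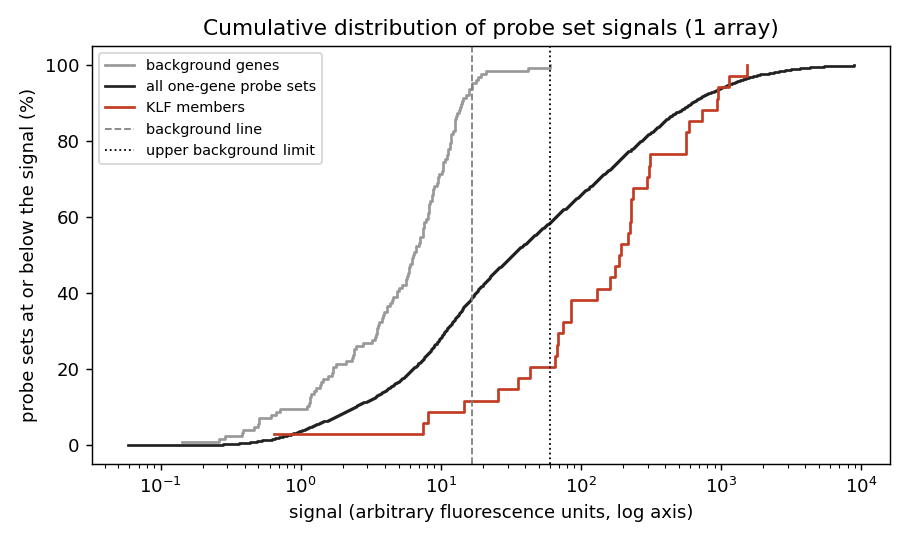
Share of probe sets (%) at or below each signal (log axis) for the 126 background probe sets, all 34945 one-gene probe sets and the 34 probe sets of the 10 genes, with the vertical lines at 16.8 and 60.6. The curve of the 10 genes lies to the right of that of all probe sets over most of the range, with medians of 191 and 32.1. It crosses that curve toward the bright end and ends at 1529.6, whereas the curve of all probe sets runs to 8927.9.

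Among the activator-type factors, 14 of 15 probe sets of Klf2, Klf4, Klf5, Klf6 and Klf7 exceeded the line and 13 the upper limit. The shares over all one-gene probe sets were 60.9% and 41.1%. Klf4, one of the classical reprogramming factors and an inducer of cell cycle arrest in epithelia, read 953 (1417394_at) and 298 (1417395_at). Both probe sets come from the same sequence record, and both were well above the upper limit. They lay at the 93.8th and 81.5th percentiles of the array's one-gene signals. Klf5, the growth-associated factor of proliferating epithelium, read 727 (1451021_a_at), 130 (1451739_at) and 7.42 (1430255_at). The lowest of these was not above the line, so that the probe sets of Klf5 disagreed on its presence, with an SD of 3.34 on the log2 scale, the widest among the 7 genes with more than 1 probe set. The annotation lists a cloned cDNA as the source of the middle one, an expressed sequence tag as that of the dim one and no source for the brightest.

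Klf6, a widely expressed factor induced by injury and studied as a tumor suppressor, was above the upper limit on all 5 probe sets. They read 1138.2 (1433508_at), 933 (1427742_a_at), 590 (1447448_s_at), 226 (1418280_at) and 84.8 (1459718_x_at). The last has a name ending that marks probes similar to other sequences, and its signal and that of the _s_at probe set can include other transcripts. These 2 come from the same record and differed by 6.95-fold. Without them Klf6 stood on 3 probe sets, all still above the limit.

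Klf7, a factor known from neurons and fat cells, gave the most even readings of the genes with more than 2 probe sets. Its signals were 229 (1419354_at), 218 (1419356_at), 188 (1449439_at) and 68.2 (1419355_at), with an SD of 0.82 on the log2 scale. All 4 come from 1 record, so they are not independent views of the transcript. Klf2, the flow-responsive factor of endothelium that also keeps lymphocytes quiescent, read 35.3 on its only probe set (1448890_at), which is 2.10 times the line and below the upper limit. Endothelial markers passed the line in 2 of 6 genes, with highest signals from 1.64 to 30.3, and leukocyte markers in 1 of 4, from 3.34 to 47.1. In endothelium the receptor gene Kdr at 30.3 and the cadherin gene Cdh5 at 17.4 passed the line, while Pecam1 at 14.3, Tek, Vwf and Tie1 did not. Among leukocyte genes Csf1r, the receptor of the macrophage growth factor, passed the line on all 3 probe sets, from 29.4 to 47.1, while Ptprc at 11.5, Itgam and Cd3e did not. Their part in the Klf2 reading was not tested, and in RNA pooled from many cells a low level in all of them and a higher one in a few cannot be told apart.

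Klf3, the CtBP-recruiting repressor known from red cells and fat cells, held the brightest probe set of the 10 genes, 1454666_at at 1529.6. That reading lay at the 96.6th percentile of the array's one-gene signals. A further 4 readings also passed the upper limit, at 307 (1429360_at), 236 (1421604_a_at), 224 (1431630_a_at) and 74.3 (1441200_at). The remaining 2 were 43.3 (1442920_at), between the thresholds, and 14.7 (1458487_at), below the line. The highest was 104 times the lowest. The 2 readings from cloned cDNA records and the 1 from a RefSeq transcript lay close together, between 224 and 307, whereas the 4 from expressed sequence tags covered the whole range. The gene was therefore above the upper limit on 5 of 7 probe sets, and its median, 224, was well under its highest reading.

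The SIN3A-recruiting factors Klf9, Klf10 and Klf13 were above the line on 10 of 11 probe sets and above the upper limit on 9. Over all one-gene probe sets these shares were 60.9% and 41.1%. Klf9, induced by glucocorticoid and thyroid hormone, read 561 (1456341_a_at), 559.7 (1428288_at) and 311 (1428289_at) on its brighter probe sets. It read 85.2 (1436952_at), 67.6 (1436763_a_at) and 65.0 (1422264_s_at) just above the upper limit, and 8.08 (1452723_at) below the line. The readings thus ranged from 8.08 to 561, and the RefSeq-derived probe set was the one at 65.0. Of the 3 Klf9 probe sets made from 1 record, 2 were among the brighter ones and 1 was the lowest of all, a 69.3-fold range. On the array there were 3788 cases in which several probe sets of a gene share a record. Their median range was 2.56-fold, and 2.35% were at least as wide as that of Klf9. Cases were pooled whatever their number of probe sets, and a range tends to widen with that number. Klf9 also had the widest range of the members with such a record, so the share does not measure how rare its range is.

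Klf10, the early TGF-beta-inducible factor, read 194 on its only probe set (1416029_at), at the 75.5th percentile. Klf13, a broadly expressed factor known from T cell chemokine regulation and the heart, read 176 (1436316_at), 161 (1432543_a_at) and 25.8 (1456030_at). The first 2 were above the upper limit and the third was between the thresholds. Klf15, a metabolic factor of muscle, liver and kidney that responds to glucocorticoid, read 0.644 on its only probe set (1448181_at), at the 1.91st percentile and under the median of the background set, 6.41. With 1 probe set of the gene on the array, a dim reading of Klf15 cannot be told apart from a probe set that reports poorly.

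Probe sets of a gene often disagreed, among these genes and on the whole array. Of the 7 genes with 2 or more probe sets, 3 had probe sets on both sides of the line, beside 32.9% of all such genes, and 4 on both sides of the upper limit, beside 41.0%. The median SD between probe sets was 1.57 on the log2 scale for the 7 genes and 1.45 for the 9010 genes of this kind. That spread mixes brightness of probes, transcript forms and noise. It is the only error the array gives, and it is wide enough that the readings of Klf4, Klf5, Klf6, Klf3 and Klf9 have no order among themselves. Probe sets whose name ends in _a_at, which match alternative transcripts of a single gene, were above the upper limit in 7 of 7 cases, and plain _at probe sets in 17 of 24. On the whole array these shares were 61.2% and 35.7%.

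The promoters of 3 of the genes are printed because the family binds the boxes they hold and because the 3 differ in signal and in box content. Klf3 held the brightest probe set, Klf4 was above the upper limit on both of its probe sets, and Klf15 was the only member not above the line. Sequences are those of RefSeq for build GRCm38.p6, the 250 bases before the annotated start site, 5′ to 3′ on the strand of the gene. Klf3 lies at chr5:64803271-64803520 (+), Klf4 at chr4:55532476-55532725 (-) and Klf15 at chr6:90462326-90462575 (+). Capitals mark matches to the GT box CACCC or the GC box CCGCCC on either strand, whose other-strand forms are GGGTG and GGGCGG.
Klf3: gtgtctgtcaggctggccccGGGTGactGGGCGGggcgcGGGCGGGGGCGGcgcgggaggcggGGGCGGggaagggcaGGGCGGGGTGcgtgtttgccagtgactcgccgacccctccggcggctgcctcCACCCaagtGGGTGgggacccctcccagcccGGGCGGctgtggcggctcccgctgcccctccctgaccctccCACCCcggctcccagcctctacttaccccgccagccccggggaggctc
Klf4: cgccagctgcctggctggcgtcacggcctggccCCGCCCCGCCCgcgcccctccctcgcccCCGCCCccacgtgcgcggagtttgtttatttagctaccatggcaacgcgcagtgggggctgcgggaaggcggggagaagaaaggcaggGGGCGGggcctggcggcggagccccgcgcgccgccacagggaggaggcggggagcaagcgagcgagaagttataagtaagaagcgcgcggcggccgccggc
Klf15: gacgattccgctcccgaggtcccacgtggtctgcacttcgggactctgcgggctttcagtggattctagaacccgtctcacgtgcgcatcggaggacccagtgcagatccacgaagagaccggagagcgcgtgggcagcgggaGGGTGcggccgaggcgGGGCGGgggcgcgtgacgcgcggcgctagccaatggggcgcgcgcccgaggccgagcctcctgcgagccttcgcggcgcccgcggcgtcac

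The Klf3 window held 5 GT boxes and 6 GC boxes, the most of either among the members, and 1 base belonged to both kinds. The Klf4 window held 4 GC boxes, of which a pair shares a base, and no GT box. The Klf15 window held 1 of each, so the member not above the line had both boxes. Promoters of 8 of the 10 genes were in the table, those of Klf5 and Klf10 being the others. Among the 8, 6 had a GT box and 7 a GC box, and none had the letters TATAAA on either strand. Over all 32841 promoter windows of this length the shares were 52.0%, 32.7% and 12.4%. The 8 windows were rich in G and C, from 59.2% to 78.4% with a median of 71.4%, beside a median of 52.4% over all. Among the 9270 windows within the same range of G and C, 65.5% had a GT box, 73.7% a GC box and 2.83% the letters TATAAA. These shares lay nearer to those of the 8 windows than the shares over all promoters did. The range was not matched to the median of the 8, and the part of base composition was not tested. A match is a run of letters and not evidence of binding.

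**Figure D3:**
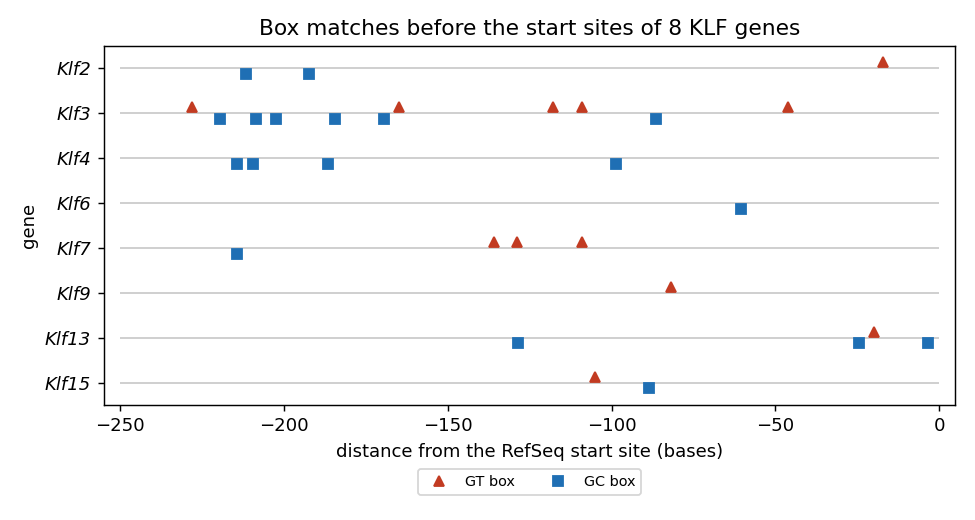
Positions of GT box matches (triangles) and GC box matches (squares) in the 250 bases before the RefSeq start site of 8 KLF genes; the horizontal axis is the distance from the start site in bases, and each row is 1 gene. Klf3 has 11 matches along the window, Klf9 has 1 GT box and no GC box, and Klf6 has 1 GC box and no GT box.

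Relatives outside the 10 genes were divided, both in the KLF family and in the SP family, which has similar zinc fingers. Of 6 other KLF genes measured, 4 were above the line and 3 of these also exceeded the upper limit. That is near the shares of all genes, 63.3% and 47.5%. Klf16, a SIN3A-recruiting factor, read 198, and Klf11, the TGF-beta-inducible relative of Klf10, 76.5, each on 1 probe set. Klf12, which recruits CtBP like Klf3, read 80.3, 39.6, 25.3, 2.57 and 1.84, so that 1 of 5 probe sets passed the upper limit. Klf1, the red cell factor, read 21.4, just above the line, and of the 3 measured red cell markers Epor read 28.8, above the line, and Gata1 and Alas2 read 14.5 and 1.52, below it. Klf14, a factor of fat tissue regulation, read 15.9 and Klf17, a factor of early embryos and germ cells, at most 15.1 on 3 probe sets, neither above the line. Klf8 was not analysed here. In all, 13 of 16 measured KLF genes exceeded the line and 11 the limit, beside 63.3% and 47.5% of all genes.

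Of 7 SP genes measured, 6 passed the line and 4 the higher threshold, beside 63.3% and 47.5% of all genes. Sp1 and Sp3, the ubiquitous factors of GC boxes, gave the clear readings, Sp1 at 827 and 562, with the last probe set at the limit (61.1), and Sp3 at 947 on its only probe set. Sp4, a neuronal factor, read 66.1 and 17.6, and Sp5, a WNT-responsive factor, read 69.1, so that both were near the upper limit. Sp6, a factor of tooth epithelium, passed the line on 1 of 4 probe sets at 36.3, and Sp7, the bone factor osterix, read 29.8. Sp8, a factor of limb and brain development, read 10.1, below the line. Sp2 and Sp9 were not analysed here.

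**Figure D4:**
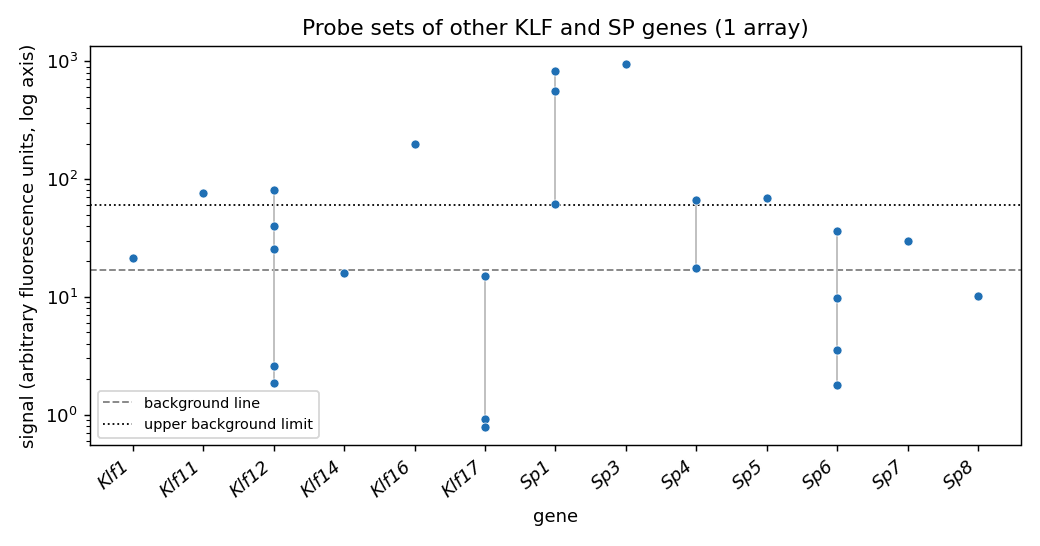
Signal of every probe set of 13 other KLF and SP genes on a log axis, drawn as for the 10 genes, with the background line at 16.8 and the upper limit at 60.6. Sp3, Klf16 and 2 of the 3 Sp1 points stand clearly above the upper limit, the third Sp1 point lies on it at 61.1, and Klf14, Klf17 and Sp8 have no point above the line.

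Genes tied to KLF factors were taken from 7 lists of cofactors, turnover genes, upstream genes, reported targets and pluripotency partners. The lists held 52 measured genes, of which 43 exceeded the line and 36 the upper limit, beside 63.3% and 47.5% of all genes. A gene was called by its highest probe set, and the number of probe sets was not matched in these shares. Of array genes with 2 and 3 probe sets, 72.4% and 82.3% exceeded the line and 54.8% and 67.2% the limit. The lists differed from one another. All 11 measured cofactors passed the upper limit, with a median highest signal of 705 beside 48.3 over all genes. For the CtBP corepressors that Klf3 recruits, Ctbp2 read 1931 and 905 and Ctbp1 1353. The histone deacetylase Hdac1 read 1501, and Sin3a, the corepressor of the Klf9 group, read 282 on the highest of 3 probe sets, all of them above the limit. The acetyltransferase gene Kat2a had the lowest highest signal of the list, 197.

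The 7 genes of protein turnover encode ubiquitin ligases or their subunits reported for KLF2, KLF4, KLF5 or KLF10. Of them 7 exceeded the line and 6 the upper limit, beside 63.3% and 47.5% of all genes. Counted singly, 13 of their 21 probe sets exceeded the limit, beside 41.1% of all one-gene probe sets. Itch read 487 on 1 of 4 probe sets above the limit, Siah1a read 232 and Fbxw7, known for KLF5 and KLF2, 220.3 on the higher of its 2. Wwp1, a ligase of KLF5, read from 98.9 to 151 on its 3 probe sets. Btrc, at 47.3, was the one under the limit.

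Upstream genes were divided by route. The MEK5 and ERK5 kinases and MEF2 factors drive Klf2 and Klf4 in endothelium. Of 5 such genes, Mef2a at 527, Map2k5 at 187 and Mef2d at 168 passed the upper limit, Mapk7, the ERK5 gene, read 29.9 between the thresholds, and Mef2c read at most 9.96 on 5 probe sets. The 4 genes of the glucocorticoid list all passed the upper limit on their highest probe set. Nr3c1, the receptor, read 324, and its target genes Fkbp5, Tsc22d3 and Per1 read 203, 94.7 and 65.9. Nr3c1 passed the limit on 4 of 6 probe sets, Tsc22d3 on 2 of 4 and Fkbp5 on 1 of 3, and the only reading of Per1 was near it. Of 2 members known as glucocorticoid targets, Klf9 read 561 on the highest of its 7 probe sets, with a median of 85.2. Klf15 read 0.644 on its only probe set, which may report poorly. All 6 TGF-beta genes, the route that induces Klf10, passed the upper limit, led by the receptor gene Tgfbr2 at 1809 and the signal transducers Smad4 at 1117 and Smad3 at 935. The lowest were Smad2 at 452 and the inhibitor Smad7 at 242. Tgfbr2 and Smad3 each rested on 2 of 3 probe sets, the lowest reading 9.86 and 48.7. Smad2 rested on 1 of 2, the lower reading 52.0, and Smad4 and Smad7 passed on all of theirs. Counted singly, 11 of the 16 probe sets of this list passed the limit, beside 41.1% of all one-gene probe sets.

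Reported KLF targets covered the whole range of signals. Of 13 measured, 9 passed the line and 6 the upper limit, which is near the shares of all genes, 63.3% and 47.5%. The 3 highest were Ccnd1, encoding cyclin D1, at 4339.9, Cdh1, encoding E-cadherin, at 4069.5, and Lgals3, the galectin gene repressed by KLF3 in other tissues, at 3322. The 2 lowest were Tagln, a smooth muscle gene under KLF4 and KLF5, at 7.16, and Ccl5, a KLF13 target in T cells, at 3.06. Pluripotency genes that act with Klf2, Klf4 and Klf5 in embryonic stem cells were above the line in 2 of 6 cases. None was above the upper limit, and the shares of all genes were again 63.3% and 47.5%. Tfcp2l1 reached 52.5 on 1 of 3 probe sets, Esrrb 39.2 on 1 of 3 and Prdm14 6.78, while Sox2 read 2.40 and Nanog 0.397. These counts describe which transcripts gave signal and do not show that a KLF protein regulated them here.

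**Figure D5:**
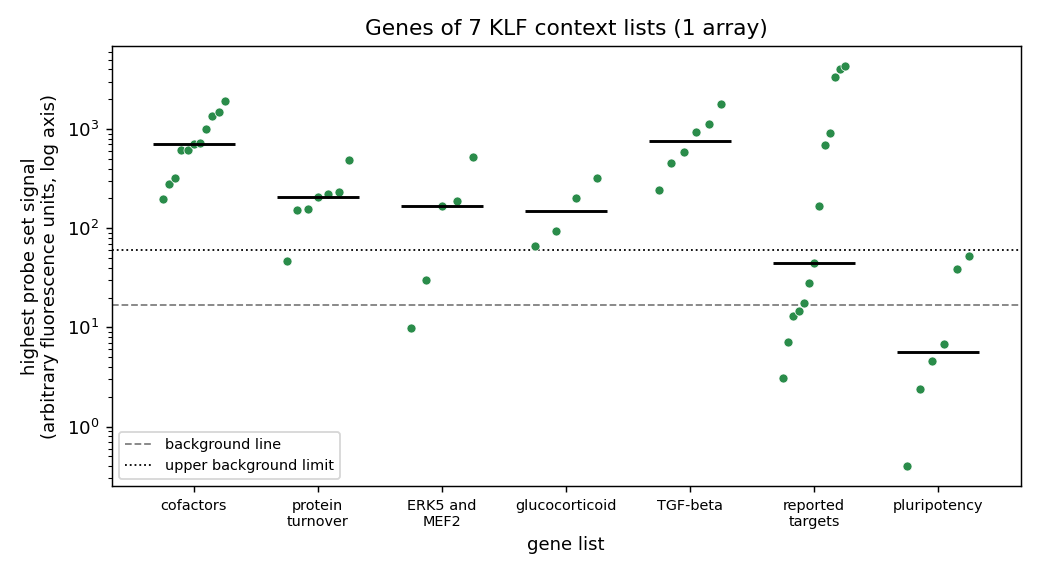
Highest probe set signal (log axis) of each measured gene in 7 lists of KLF cofactors, turnover genes, upstream genes, reported targets and pluripotency partners; each point is 1 gene on 1 array, the black bar is the median of the list, and the lines are the background line at 16.8 and the upper limit at 60.6. All cofactor, glucocorticoid and TGF-beta genes lie above the upper limit, the reported targets spread from 3.06 to 4339.9, and no pluripotency gene exceeds the upper limit.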

How the data were processed

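The sample was 1 cell line on 1 array. The authors deposited a linear signal intensity for each probe set, for which the submitters' processing notes name Affymetrix Expression Console. How that program summarised or scaled the array is not given in the sources used here, and scanner files and detection calls were not used. Of 45101 probe sets, 64 were controls, 34945 named 1 gene, 932 several and 9160 none. Symbols were updated by gene ID through RefSeq (GRCm38.p6) for 34741. Signals were taken to log2, and a gene was called by its highest probe set against the 95th percentile and the maximum of 126 background probe sets (112 genes). No test between groups was possible and depth does not apply to an array, so precision is limited by the single array. The code for the calls was run on simulated data in which present genes were set far above the background and absent genes were drawn like it. That run checks the code and does not show that calls on real signals near the thresholds are right. Members and lists were chosen with earlier results of these data known. All probe sets of the members, all measured relatives, and from each of the 7 KLF context lists the 3 highest and 2 lowest genes were named. Cell type markers were given as counts and ranges with genes of some lists named, and some of those were named after their values were seen. No gene was named for a like pattern, since 1 sample gives none. Promoter boxes were counted by exact letters. Software was Python 3.11.15 with numpy 2.4.6 and pandas 2.3.3, and matplotlib 3.10.9 for figures.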

Additional observations from a re-analysis of the deposited data

How the results depend on the processing

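The counts of genes and probe sets were recomputed with the line at the 90th or 99th percentile or at the mean plus 2 SD of the background set, with olfactory and vomeronasal receptors alone as background, without probe sets ending in _s_at or _x_at, with the median of a gene's probe sets, with every probe set required to pass, and with the upper limit at 42.2. Of 34 such values, 33 stayed within 1.5 times the reported count. The exception was the number of members above the upper limit when every probe set had to pass, which was 4 in place of 8, namely Klf4, Klf6, Klf7 and Klf10. Under the same rule the members above the line fell from 9 to 6, at the edge of that range. Klf3, Klf5 and Klf9 then failed along with Klf15. Klf2 was the member whose call turned with the line. It was above the line at the 90th and 95th percentiles but not at the 99th (35.5) or at the mean plus 2 SD (45.0), which left 8 members, and it passed the upper limit of 19.2 set by the receptors alone, which gave 9. Klf15 was not above any threshold tried. On the median of their probe sets Klf3 fell from 10.58 to 7.80 and Klf9 from 9.13 to 6.41 on the log2 scale, more than 1 SD between their probe sets. Signals below the upper limit carry little information on amount. No paired analysis was possible because there is 1 sample.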

Other observations

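The early growth response genes and Wt1 encode zinc finger proteins of another family that also binds GC-rich sites. They were looked at after the values of the KLF genes were seen. Of 5 genes, 2 were above the background line and 1 above the upper limit, beside 63.3% and 47.5% of all genes. Egr1, an immediate early gene, read 337 on its only probe set. Egr3 read 22.7 and 18.8, both between the thresholds. Egr2 read at most 6.60, Egr4 7.63 and Wt1, a gene of the developing kidney and gonad, 12.5, none of them above the line.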
